A study of Caenorhabditis elegans with 2 samples.

Results

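Insulin-like peptides and neuropeptides are short signals that *C. elegans* cuts out of larger precursor proteins and releases from neurons and from other tissues, the intestine among them. The genes described here are those whose symbols follow the *ins*, *flp*, *nlp* or *pdf* numbering, with *daf-28*, *snet-1* and *ntc-1*, and without *nlp-24* to *nlp-34*, which are known as antimicrobial peptide genes. By that rule 135 of the 18510 genes in the expression table were members, of which 37 were insulin-like, 31 FMRFamide-like (*flp*) and 67 other neuropeptide genes, and 11 antimicrobial *nlp* genes were left out. The nematodes given AbaPep#07, a peptide from abalone, received it at 2 mM from the L4 larval stage, and the Control nematodes were untreated. Both groups were wild-type N2 and were collected as whole nematodes on day 10 of adulthood. The RNA-seq methods of the paper do not state the medium. Its liquid cultures used *E. coli* NA22 as food, and the medium of its lifespan and behaviour assays also held the drug FUDR. Each condition was 1 RNA-seq library, made from polyadenylated RNA, with 19241145 estimated reads on genes in the AbaPep#07 library and 19409907 in the Control library. No replicate error can therefore be given, and each test compares these 2 libraries, not the conditions. In RNA of whole nematodes, fewer cells of a type and less RNA per cell cannot be told apart. The question asked of these genes was whether the abundance of peptide signal transcripts on day 10 of adulthood differed with AbaPep#07.

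The 3 classes differ in structure and in how they are known to act. Insulin-like peptides resemble human insulin and bind the receptor DAF-2, some as agonists that switch on growth and reproduction and some as antagonists, and signalling through DAF-2 is known for its control of dauer arrest, stress resistance and lifespan. FMRFamide-like peptides end in an amidated RF motif, and 1 precursor often carries several of them. They act mostly on G protein-coupled receptors in circuits for movement, feeding, sleep and egg laying. The other neuropeptide genes are a mixed group, among them PDF-type, cholecystokinin-like and vasopressin/oxytocin-like peptides. All classes depend on the same maturation steps, in which convertases cut the precursor, a carboxypeptidase trims it, amidating enzymes finish many of the peptides, and dense-core vesicles store and release them.

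Levels between genes were compared in TPM, a share of all transcripts corrected for transcript length, and libraries were compared in FPKM, which scales fragments for library size and for length, or in reads. Peptide genes as a whole held 0.686% of all TPM in AbaPep#07 nematodes and 0.723% in Control nematodes. The median FMRFamide-like gene stood at 48.1 TPM in the AbaPep#07 library and 54.3 TPM in the Control library, and the median other neuropeptide gene at 32.1 and 36.6 TPM in the same order of libraries. Insulin-like genes were far lower, with medians of 4.29 TPM in AbaPep#07 nematodes and 4.47 TPM in Control nematodes. Reads followed the same order, and 16 members had under 20 reads in all, of which 12 were insulin-like, 1 FMRFamide-like (*flp-23*) and 3 other neuropeptide genes. The highest members were *nlp-77* at 598 TPM in AbaPep#07 nematodes and 425 TPM in Control nematodes, *nlp-40*, *nlp-49* and *flp-1*.

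**Figure D1:**
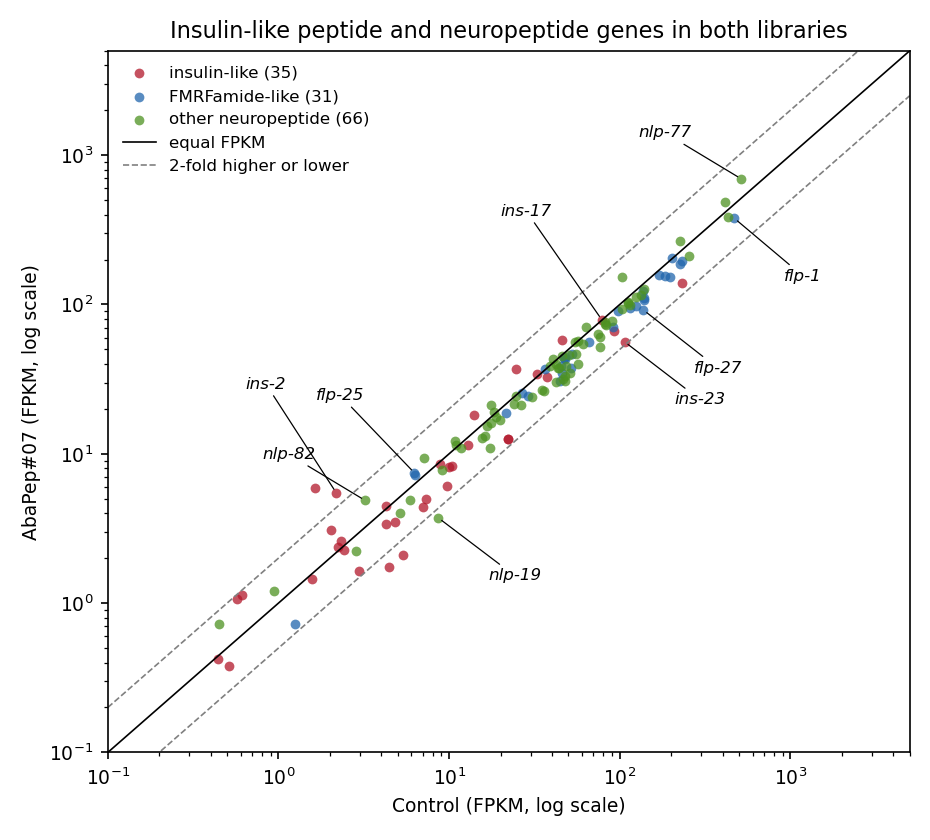
FPKM of each peptide gene in AbaPep#07 nematodes (vertical axis, log scale) against Control nematodes (horizontal axis, log scale), coloured by class, with the number of genes drawn in brackets and the names of the extreme ratios and of the most reads in each class (20 reads or more). The 3 members at 0 in 1 library are not drawn. Most points lie between the dashed lines of a 2-fold difference, more of them below than above the line of equal FPKM, and *ins-2* lies above the upper dashed line.

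A member was called where the test of its reads (the Poisson-based test of Audic and Claverie, adjusted by Benjamini-Hochberg over all 18510 genes to give an FDR) reached an FDR of 0.05 and its FPKM ratio of AbaPep#07 over Control was at least 2 or at most 0.5. Of the 135 members, 1 was called higher, *ins-2*, and 0 were called lower. Over all genes 2.10% were called higher and 1.43% lower, so the share of members called was under the background in both directions. The FDR alone, without the fold threshold and added after the values were seen, passed 5 members with more reads in AbaPep#07 nematodes and 23 with fewer, where the background was 13.1% of all genes with more reads and 12.4% with fewer. A second measure was the read ratio of AbaPep#07 over Control, scaled by the library totals, with its exact 95% binomial (Clopper-Pearson) interval, which covers counting error only and does not tell PCR copies from separate molecules. The interval lay wholly above 1 for 7 members and wholly below 1 for 31 (23.0%), while 16.1% of all genes lay wholly above 1 and 16.0% wholly below.

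The direction of the members was uneven, with differences that were small. Leaving out the 16 members under 20 reads, 92 members had an FPKM ratio under 1 (77.3%) and 27 had one above 1. Among all 14119 genes with that many reads, 54.8% had an FPKM ratio under 1. The median log2 FPKM ratio was -0.20 over the members and -0.03 over all genes. Their summed reads were 48517 in AbaPep#07 nematodes and 51503 in Control nematodes, a ratio of 0.950 with an interval of 0.939 to 0.962. Since the interval narrows with depth, the members were also set against genes of like depth, a comparison chosen after the values were seen. Of the 91 members with at least 100 reads, 5 had an interval wholly above 1 and 31 wholly below 1 (34.1%), against 23.8% and 24.3% of the 11002 genes with as many reads.

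Insulin-like genes were led by a single call and were the least precisely measured class. The gene *ins-2*, annotated as a beta-type insulin-like peptide, lies at chromosome II 5988524 to 5989426 (WBcel235, NCBI gene 191217). It had 31 reads in AbaPep#07 nematodes and 12 in Control nematodes, or 4.72 and 1.80 TPM in the same order. It rose by 1.33 on the log2 FPKM scale (FDR 0.0162, Audic-Claverie test with Benjamini-Hochberg adjustment), with a read ratio of 2.61 and an interval of 1.30 to 5.57. The interval is wide because both libraries held few reads of this gene. The call was not made by an edgeR exact test with an assumed biological variation of 0.2 or 0.4, nor after Bonferroni adjustment.

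The intestinal DAF-2 agonist gene *ins-7* had 78 reads in AbaPep#07 nematodes and 49 in Control nematodes. Its read ratio was 1.61, with an interval of 1.11 to 2.34, and its FDR was 0.0365, but its log2 FPKM ratio of 0.60 was under the fold threshold. Lower values were seen for *ins-19* (chromosome II 3126037 to 3126441), with 244 reads in AbaPep#07 nematodes and 377 in Control nematodes. Its read ratio was 0.653, with an interval of 0.553 to 0.769. The lowest FPKM ratio among insulin-like genes with at least 20 reads was that of *ins-23* (chromosome III 10028247 to 10028697), annotated as an alpha-type peptide, with 126 reads in AbaPep#07 nematodes and 225 in Control nematodes. Its log2 FPKM ratio was -0.93 and its read ratio 0.565, with an interval of 0.451 to 0.706, so it stayed just short of the 2-fold threshold although its FDR was 2.01e-06. These 4 genes were the insulin-like members whose counting interval lay off 1, with 2 above (5.41%) and 2 below (5.41%), both shares under those of all genes.

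Unlike *ins-7*, the other insulin-like genes of known action on DAF-2 described here had intervals that included 1. Of the agonists known to prevent dauer arrest, *daf-28* had 105 reads in AbaPep#07 nematodes and 118 in Control nematodes, *ins-4* had 105 and 79, and *ins-6* had 24 and 34. For *ins-4* the interval of the ratio ran from 0.992 to 1.82. Of the known antagonists, *ins-1* had 81 reads in AbaPep#07 nematodes and 98 in Control nematodes, and *ins-18* had 72 and 65. No direction can be read for these 5 genes at this depth. The most abundant insulin-like gene by reads, *ins-17*, had 430 reads in AbaPep#07 nematodes and 416 in Control nematodes, with a log2 FPKM ratio of 0.01, and it made up 23.1% of the reads of its class in AbaPep#07 nematodes and 19.7% in Control nematodes. The intestinal gene *ins-11* had 5 reads in each library, too few to show a difference. Of *ins-33*, *ins-35* and *ins-37*, the largest log2 FPKM ratio was 0.59, for *ins-33*, on 14 reads in AbaPep#07 nematodes and 9 in Control nematodes. The other 2 had 70 reads in AbaPep#07 nematodes against 63 in Control nematodes (*ins-35*) and 18.7 against 20.1 (*ins-37*). Next to *ins-23*, the lowest FPKM ratios were those of *ins-29*, with 19 reads in AbaPep#07 nematodes and 31 in Control nematodes, and *ins-10*, with 28 and 46. The intervals of both included 1, with that of *ins-10* ending at 1.003.

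Over the class, 25 insulin-like genes had at least 20 reads, of which 16 had an FPKM ratio under 1 and 9 above 1. Their log2 FPKM ratios spread from -0.93 to 1.33 around a median of -0.19. Summed reads were 1858 in AbaPep#07 nematodes and 2107 in Control nematodes, a ratio of 0.889 with an interval of 0.835 to 0.947. Without *ins-19* the ratio was 0.941 and its interval of 0.879 to 1.01 included 1. The counting interval reached a 2-fold difference in one direction or the other for 25 of the 37 genes, so that a difference of that size was not excluded by the depth for most of the class. Among the 12 genes under 20 reads were *ins-39*, with 2 reads in AbaPep#07 nematodes and 0 in Control nematodes, and *ins-9*, with 0 and 1. A count of 0 allows up to 3 reads, and no fold is given for either.

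**Figure D2:**
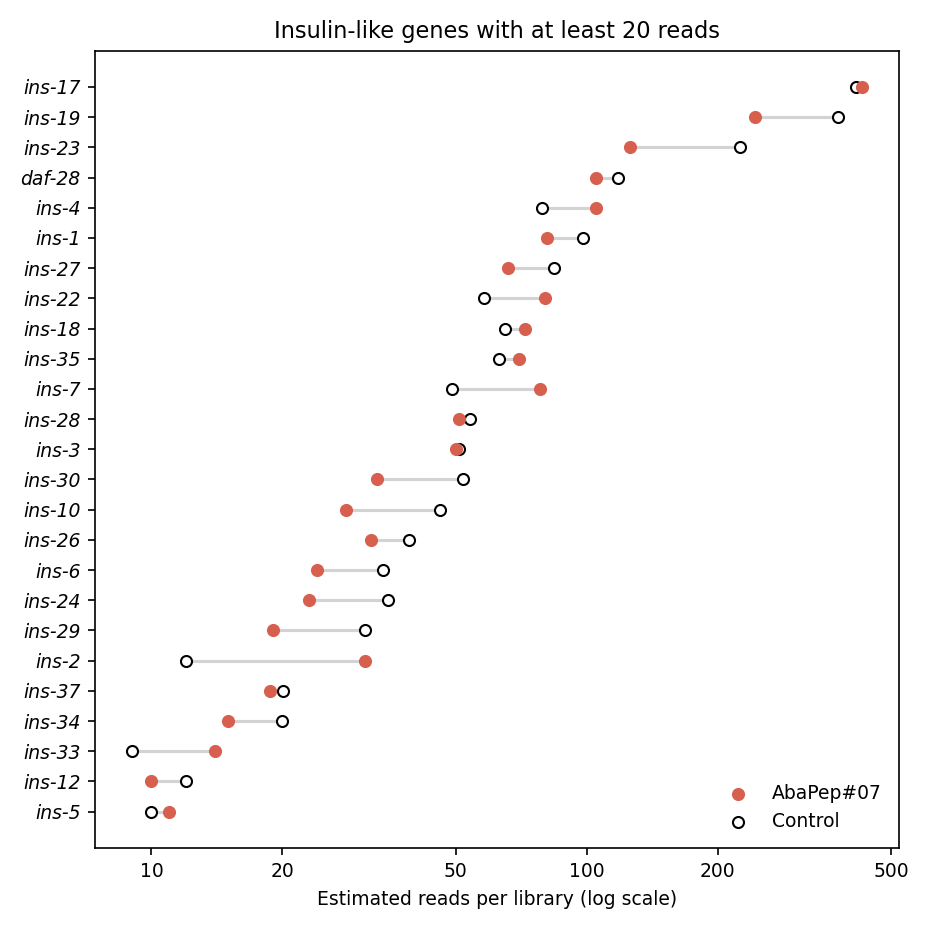
Estimated reads (horizontal axis, log scale) of the 25 insulin-like genes that reached 20 reads over the 2 libraries, with AbaPep#07 as filled and Control as open circles joined by a line. *ins-19* and *ins-23* show the AbaPep#07 value clearly to the left, *ins-7* and *ins-2* to the right, and *ins-17*, *ins-28* and *ins-3* show nearly equal values.

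Many insulin-like genes sit side by side. Runs of members whose neighbours lay within 20000 bases numbered 11 and held 35 genes. The run of 7 genes on chromosome I, from 14012369 to 14037777 (*ins-24* to *ins-30*), had 233 reads in AbaPep#07 nematodes and 303 in Control nematodes. Its ratio was 0.776, with an interval of 0.651 to 0.923, and all 6 of its genes with at least 20 reads had an FPKM ratio under 1. The run of 6 genes on chromosome II that holds *ins-2*, from 5988524 to 6011321, had 226 reads in AbaPep#07 nematodes and 198 in Control nematodes. Its ratio was 1.15 with an interval of 0.947 to 1.40, and 2 of its 5 genes with at least 20 reads had an FPKM ratio under 1, so *ins-2* did not share its direction with every neighbour. On chromosome III, *ins-22* had 80 reads in AbaPep#07 nematodes and 58 in Control nematodes, beside *ins-23* with its lower value.

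FMRFamide-like genes were measured most precisely and lay lower as a class in AbaPep#07 nematodes. Of the 31 genes, 0 were called by FDR and fold in either direction, 0 had a counting interval wholly above 1, and 14 had one wholly below 1 (45.2%). Of these, 13 passed the FDR alone (41.9%), against 12.4% of all genes with fewer reads. Among the 29 genes with at least 100 reads, the 14 below 1 were 48.3%, against 24.3% of all genes of that depth. In FPKM and in reads alike, 26 of the 30 genes with at least 20 reads had a ratio under 1 (86.7%), against 54.8% of all genes in FPKM and 52.7% in reads. In TPM the number was also 26, against 46.0% of all genes, and with TMM factors it was 25, against 50.8%. The log2 FPKM ratios ran from -0.59 to 0.25 with a median of -0.23, and summed reads were 17363 in AbaPep#07 nematodes and 20223 in Control nematodes, a ratio of 0.866 with an interval of 0.849 to 0.884.

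The most abundant FMRFamide-like gene, *flp-1* (chromosome IV 9144705 to 9146128), acts in locomotion and is made in a few interneurons. It had 2798 reads in AbaPep#07 nematodes and 3408 in Control nematodes, or 326 and 388 TPM in the same order. Its read ratio was 0.828, with an interval of 0.788 to 0.871 and an FDR of 2.71e-12. It made up 16.1% of the reads of the class in AbaPep#07 nematodes and 16.9% in Control nematodes, and without it the ratio of summed reads was 0.874. The lowest FPKM ratio was that of *flp-27* (chromosome II 5681004 to 5682667), with 498 reads in AbaPep#07 nematodes and 727 in Control nematodes. Its log2 FPKM ratio was -0.59 and its read ratio 0.691, with an interval of 0.615 to 0.776. Next came *flp-4*, with 180 reads in AbaPep#07 nematodes and 256 in Control nematodes, and a log2 FPKM ratio of -0.54. The gene *flp-2*, whose peptides the intestine can release, had 176 reads in AbaPep#07 nematodes and 234 in Control nematodes, with a log2 FPKM ratio of -0.45. Each of these genes had fewer reads with AbaPep#07 by less than the 2-fold threshold.

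Other members below 1 included *flp-3*, with 1099 reads in AbaPep#07 nematodes and 1392 in Control nematodes, and *flp-9*, with 964 and 1186. The gene *flp-11*, which promotes sleep from the RIS neuron, had 797 reads in AbaPep#07 nematodes and 1001 in Control nematodes, a log2 FPKM ratio of -0.36. The gene *flp-8* had 213 reads in AbaPep#07 nematodes and 273 in Control nematodes. In *flp-6*, expressed in the thermosensory AFD neurons, there were 644 reads in AbaPep#07 nematodes and 822 in Control nematodes. The remaining members below 1 were *flp-12*, *flp-22*, *flp-24*, *flp-28* and *flp-34*, with read ratios from 0.719 (*flp-34*) to 0.893 (*flp-22*). Not all sleep-related members had the same value, since *flp-13*, which acts in the ALA neuron after stress, had 341 reads in AbaPep#07 nematodes and 333 in Control nematodes, and its interval included 1. Near 1 were also several feeding-related and sensory genes. The NPY-like gene *flp-18* had 1205 reads in AbaPep#07 nematodes and 1279 in Control nematodes, with an interval of 0.878 to 1.03. The NPR-1 ligand gene *flp-21* had 135 reads in AbaPep#07 nematodes and 143 in Control nematodes, with an interval of 0.747 to 1.21. Values for *flp-14* were 1162 reads in AbaPep#07 nematodes and 1224 in Control nematodes, and for *flp-5* they were 548 and 594. The tachykinin-like gene *flp-7*, which acts from neurons on fat loss in the intestine, had 229 reads in AbaPep#07 nematodes and 238 in Control nematodes.

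The 4 FMRFamide-like genes with a ratio above 1 were *flp-25*, *flp-33*, *flp-15* and *flp-13*, and the interval of each included 1. The highest log2 FPKM ratio was 0.25, for *flp-25*, on 51 reads in AbaPep#07 nematodes and 42 in Control nematodes. For 30 of the 31 genes the counting interval lay within a 2-fold difference, the exception being *flp-23* with 2 reads in AbaPep#07 nematodes and 3 in Control nematodes. By position, 13 of the 31 genes lie on the X chromosome, where *flp-28*, *flp-3* and *flp-2* form a run from 10087314 to 10095245 with 2216 reads in AbaPep#07 nematodes and 2723 in Control nematodes. The spans of all 3 genes overlap the same other coding gene, W07E11.1. The estimated reads of each were whole numbers, so none were divided with another gene, but whether the counting used strand is not given in the sources used here.

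**Figure D3:**
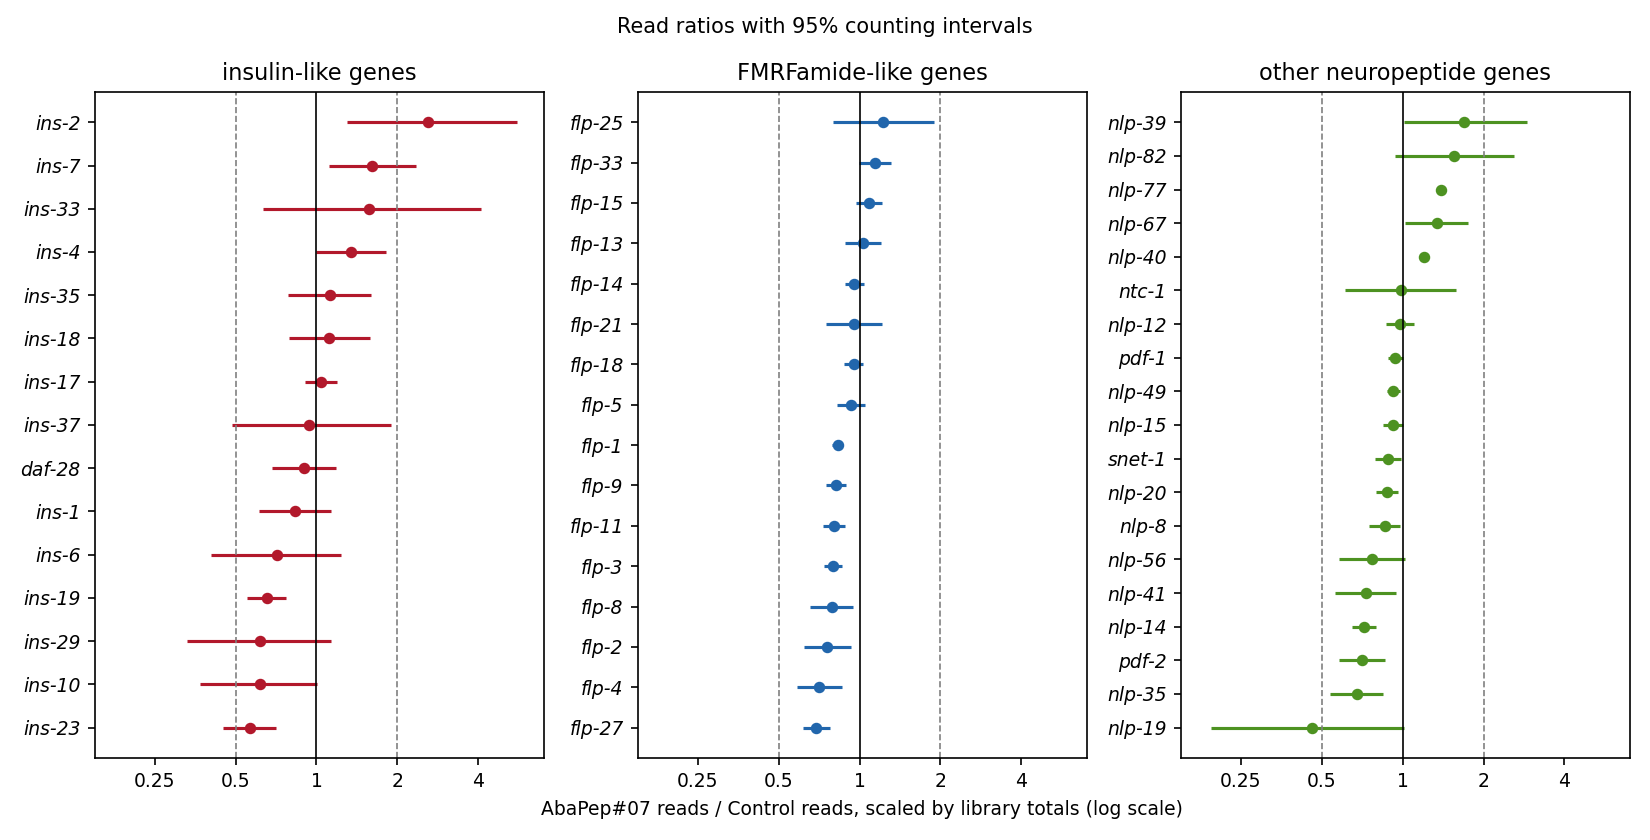
Read ratio of AbaPep#07 over Control, scaled by library totals (horizontal axis, log scale), for named members of each class with at least 20 reads. Points are the ratio and bars its exact 95% counting interval (shorter than the point for *nlp-77*, *nlp-40* and *flp-1*), the solid line marks 1 and the dashed lines 2-fold differences. Bars are widest among insulin-like genes, and no FMRFamide-like bar lies wholly above 1.

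Among the other neuropeptide genes, the 2 most abundant ones were higher in AbaPep#07 nematodes by more than counting error, while most of the class had ratios under 1. Of 67 genes, 0 were called by FDR and fold, 5 had a counting interval wholly above 1 (7.46%) and 15 wholly below 1 (22.4%). Over all genes these interval shares were 16.1% and 16.0%. The FDR alone passed 3 genes with more reads in AbaPep#07 nematodes, *nlp-77*, *nlp-40* and *nlp-36*, and 8 with fewer (11.9%). The background was 13.1% of all genes with more reads and 12.4% with fewer, so the share with fewer was near that of all genes. Among the 64 genes with at least 20 reads, 50 had an FPKM ratio under 1 (78.1%), or 47 by reads, and the median log2 FPKM ratio was -0.16. Summed reads were nonetheless near equal, with 29296 in AbaPep#07 nematodes and 29172 in Control nematodes, a ratio of 1.01 with an interval of 0.997 to 1.03. Without *nlp-77*, the gene with the most reads, the ratio of summed reads was 0.956, with an interval of 0.939 to 0.973. Leaving out *nlp-36*, *nlp-40* and *nlp-77*, a choice made after the values were seen, gave 0.911, with an interval of 0.893 to 0.929. These were the genes that passed the FDR with more reads, so leaving them out could only lower the ratio.

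The gene *nlp-77* (chromosome II 7790592 to 7791375), annotated as a DUF148 domain protein, had 5326 reads in AbaPep#07 nematodes and 3880 in Control nematodes. Its read ratio was 1.38, with an interval of 1.33 to 1.44, and it made up 18.2% of the reads of its class in AbaPep#07 nematodes and 13.3% in Control nematodes. The gene *nlp-40* (chromosome I 11495 to 16837), which the intestine releases to time defecation, had 4012 reads in AbaPep#07 nematodes and 3368 in Control nematodes. Its log2 FPKM ratio was 0.23 and the interval of its read ratio 1.15 to 1.26. The gene *nlp-36* had 586 reads in AbaPep#07 nematodes and 464 in Control nematodes, with an interval of 1.13 to 1.44. The other members with an interval above 1 were *nlp-67*, with 130 reads in AbaPep#07 nematodes and 98 in Control nematodes, and *nlp-39*, with 42 and 25. Neither passed the FDR threshold. The differences of *nlp-77* and *nlp-40* were small in fold and large against counting error alone.

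Lower values were spread over genes of several kinds. Of the PDF-type genes, which promote roaming, *pdf-2* had 175 reads in AbaPep#07 nematodes and 249 in Control nematodes, a read ratio of 0.709 with an interval of 0.581 to 0.864. Its partner *pdf-1* had 1828 reads in AbaPep#07 nematodes and 1965 in Control nematodes, with an interval of 0.880 to 1.001. Both PDF genes were on the same side of 1, and the interval of *pdf-1* included it. The gene *nlp-14* had 663 reads in AbaPep#07 nematodes and 930 in Control nematodes, a log2 FPKM ratio of -0.49 and an FDR of 1.11e-09. The gene *nlp-35* had 135 reads in AbaPep#07 nematodes and 202 in Control nematodes, with a log2 FPKM ratio of -0.63. The lowest FPKM ratio of the class belonged to *nlp-19*, at -1.22 on the log2 scale, but with 10 reads in AbaPep#07 nematodes and 22 in Control nematodes its interval of 0.194 to 1.01 included 1. Further genes with intervals below 1 were *nlp-38*, with 251 reads in AbaPep#07 nematodes and 354 in Control nematodes, *nlp-71*, with 166 and 236, *nlp-7*, with 175 and 241, and *nlp-41*, with 105 and 145. The gene *nlp-3*, which acts with serotonin in the egg-laying HSN neurons, had 273 reads in AbaPep#07 nematodes and 334 in Control nematodes, an interval of 0.700 to 0.970. Against these, the highest FPKM ratio was that of *nlp-82*, at 0.60 on the log2 scale, on 43 reads in AbaPep#07 nematodes and 28 in Control nematodes, and its interval of 0.941 to 2.59 included 1.

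Among well-studied members, *nlp-49*, whose peptide acts on the receptor SEB-3, had 2357 reads in AbaPep#07 nematodes and 2571 in Control nematodes, with an interval of 0.874 to 0.978. The gene *snet-1*, which acts in olfactory plasticity, had 616 reads in AbaPep#07 nematodes and 703 in Control nematodes, with an interval of 0.792 to 0.986. The sleep-promoting gene *nlp-8* had 416 reads in AbaPep#07 nematodes and 489 in Control nematodes, with an interval of 0.751 to 0.980. These 3 intervals lay below 1, and that of *nlp-49* ended close to it. The cholecystokinin-like gene *nlp-12* had 551 reads in AbaPep#07 nematodes and 569 in Control nematodes, and the vasopressin/oxytocin-like gene *ntc-1* had 38 and 39. The GnRH-like gene *nlp-47* had 387 reads in AbaPep#07 nematodes and 386 in Control nematodes. Their intervals included 1, as did that of *nlp-15*, with 1008 reads in AbaPep#07 nematodes and 1105 in Control nematodes. The gene *nlp-20* had 808 reads in AbaPep#07 nematodes and 930 in Control nematodes, an interval of 0.797 to 0.964. The sleep-related gene *nlp-22* had 0 reads in AbaPep#07 nematodes and 1 in Control nematodes, so nothing could be seen at this depth.

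Genes that process and release peptides had intervals below 1 more often than above it. Of the 19 genes listed, 0 were called by FDR and fold, 4 had an interval wholly above 1 (21.1%) and 8 wholly below 1 (42.1%). All of them had over 100 reads, where the shares of all genes were 23.8% above and 24.3% below. The convertase gene *egl-3* had 6835 reads in AbaPep#07 nematodes and 8128 in Control nematodes, a read ratio of 0.848 with an interval of 0.821 to 0.876. The carboxypeptidase gene *egl-21* had 4742 reads in AbaPep#07 nematodes and 5559 in Control nematodes, with an interval of 0.828 to 0.895. The 7B2-like chaperone gene *sbt-1* had 2811 reads in AbaPep#07 nematodes and 3422 in Control nematodes, and the dense-core vesicle gene *ida-1* had 4005 and 4915. These 4 genes lay between 0.822 and 0.861 of the Control level by reads. For amidation, *pgal-1* had 2536 reads in AbaPep#07 nematodes and 2967 in Control nematodes, and *pghm-1* had 2257 and 2498, with intervals of 0.817 to 0.909 and 0.861 to 0.965. The third amidation gene, *pamn-1*, had 522 reads in AbaPep#07 nematodes and 477 in Control nematodes, with an interval of 0.973 to 1.25. In the opposite direction *hid-1*, which acts in dense-core vesicle maturation, had 743 reads in AbaPep#07 nematodes and 566 in Control nematodes, with an interval of 1.18 to 1.48. Above 1 too were the endoprotease gene *aex-5*, with 438 reads in AbaPep#07 nematodes and 382 in Control nematodes, and *cab-1*, with 6873 and 6641. Their intervals were 1.006 to 1.33 and 1.009 to 1.08. The endoprotease gene *bli-4* had 3712 reads in AbaPep#07 nematodes and 3722 in Control nematodes, with an interval of 0.961 to 1.05. Without *kpc-1* the summed ratio of the list fell from 0.945 to 0.916. The release factor gene *unc-31* had 422 reads in AbaPep#07 nematodes and 513 in Control nematodes, a log2 read ratio of -0.27, but a log2 FPKM ratio of 0.08, so its direction depended on the unit.

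The receptor side was lowly expressed. Of 94 peptide receptor genes, 1 was called higher, *dmsr-16*, on 14 reads in AbaPep#07 nematodes and 2 in Control nematodes, and 0 were called lower. An interval lay wholly above 1 for that gene alone (1.06%) and wholly below 1 for 10 genes (10.6%), both under the shares of all genes, 16.1% and 16.0%. The median receptor gene had 63 reads in both libraries together, against 244 over all genes, and such shares depend on depth. Receptor genes were not compared with genes of like depth. The insulin receptor gene *daf-2* was among the 10, with 4301 reads in AbaPep#07 nematodes and 4916 in Control nematodes, a read ratio of 0.883 and an interval of 0.847 to 0.920. The GnRH receptor-like gene *gnrr-1* had 595 reads in AbaPep#07 nematodes and 840 in Control nematodes, with an interval of 0.642 to 0.795. The median log2 FPKM ratio of the 79 receptor genes with at least 20 reads was -0.09, closer to that of all genes than the median of any peptide class. Their summed reads were nonetheless lower. Over all 94 genes the ratio of summed reads was 0.892 with an interval of 0.869 to 0.917, and 0.900 (0.868 to 0.932) without *daf-2*.

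Marker lists of neurons, the intestine and other tissues and stages did not share 1 direction. Of 12 pan-neuronal genes, 2 had an interval above 1 (16.7%) and 5 below 1 (41.7%). All had over 100 reads, where the shares of all genes were 23.8% above and 24.3% below. An FPKM ratio under 1 was seen for 8 of the 12 (66.7%), and their median log2 FPKM ratio was -0.14. Their summed reads gave a ratio of 0.986 with an interval of 0.957 to 1.02. Without *snb-1* it was 0.959 with an interval of 0.925 to 0.994. Single neuronal genes ranged widely, with *rgef-1* at 107 reads in AbaPep#07 nematodes and 174 in Control nematodes, and *unc-64* at 1253 and 1164. Of the 6 intestinal markers found out of 7 listed, 3 had an interval above 1 and 2 below 1. Among these *act-5* was called higher, with 5757 reads in AbaPep#07 nematodes and 2653 in Control nematodes, and *mtl-2* was called lower, with 167 and 364. Their summed ratio was 1.13 with an interval of 1.11 to 1.16, but without *act-5* it was 0.909 with an interval of 0.886 to 0.933, so that 1 gene set its direction. All 8 germline and oocyte markers had an interval below 1, with a summed ratio of 0.820, and pharyngeal markers had a summed ratio of 0.805. Body wall muscle markers stood at 0.982, and their direction depended on the gene left out. The ratio was 1.02 without *unc-54*, and 0.928 without *act-4*, with an interval of 0.918 to 0.938. Of the 6 muscle markers, 1 had an interval above 1 (*act-4*) and 3 below 1. Leaving out each gene in turn was added after the values were seen. The part of tissue make-up in the peptide gene values was not tested.

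**Figure D4:**
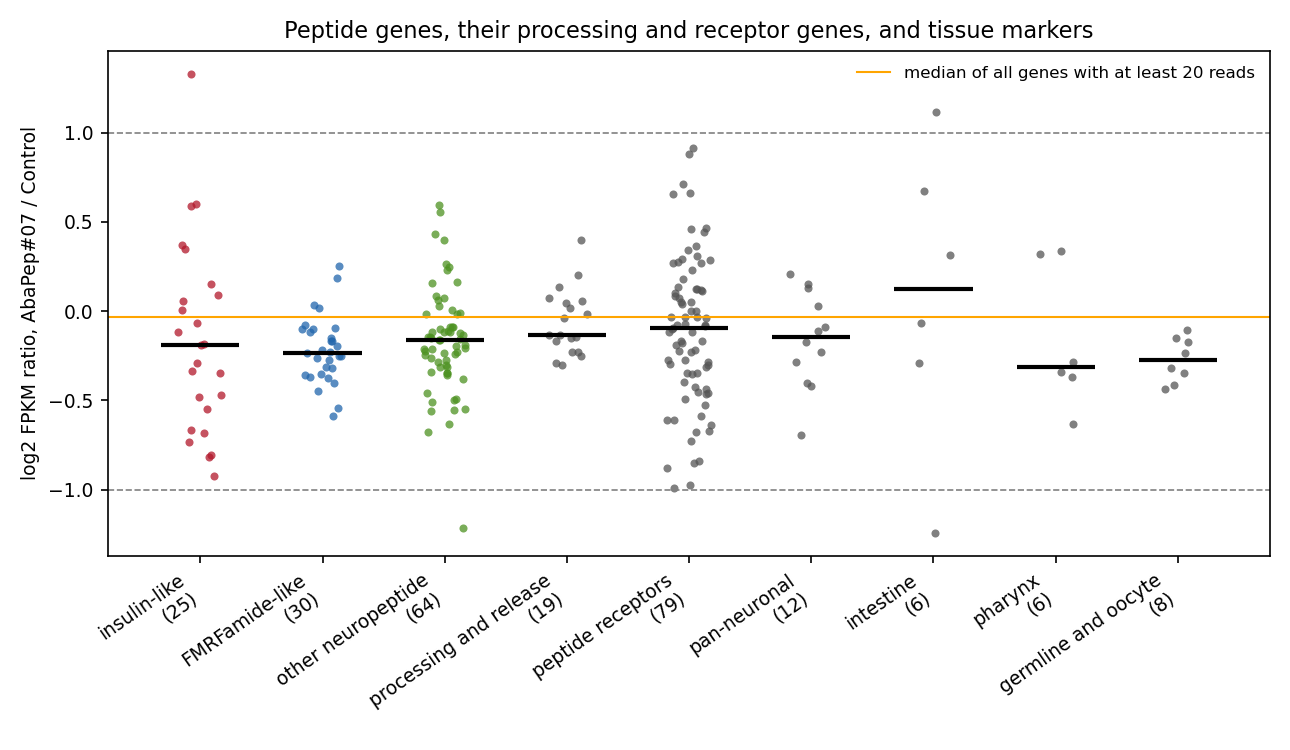
Log2 FPKM ratio of AbaPep#07 over Control (vertical axis) for genes with at least 20 reads in the 3 peptide classes, the processing and receptor genes and 4 marker lists, with the number of genes in brackets. Each point is a gene, each black bar the median of its list, the orange line the median of all genes at -0.03 and the dashed lines 2-fold differences. The FMRFamide-like points are tightly grouped below the orange line, the insulin-like points are spread widely, and intestinal markers are the plotted list with a median above 0.

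Between the classes, the medians differed little beside the spread within them, and what differed most was the share of genes with intervals below 1. That share was 5.41% for insulin-like, 45.2% for FMRFamide-like and 22.4% for other neuropeptide genes, against 16.0% of all genes. It followed depth in part, since the median reads of a gene in both libraries together were 50, 809 and 402 in the same order of classes. At 100 reads or more, the counts below 1 were 2 of 13 insulin-like (15.4%), 14 of 29 FMRFamide-like (48.3%) and 15 of 49 other neuropeptide genes (30.6%). The share of all genes at that depth was 24.3%, which the FMRFamide-like share exceeded most. The ratios of summed reads were 0.889, 0.866 and 1.01 in that order. The intervals of the insulin-like and FMRFamide-like ratios overlapped, and that of the other neuropeptide genes lay above both. Without the gene with the most reads of each class, the ratios were 0.852 (interval 0.793 to 0.915) for insulin-like, 0.874 (0.855 to 0.893) for FMRFamide-like and 0.956 (0.939 to 0.973) for other neuropeptide genes, with the last again above both.

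The FPKM ratio read slightly lower than the read ratio for short transcripts. The median of log2 FPKM ratio minus log2 read ratio was -0.13 over the 253 genes with an effective length of up to 100 bases, -0.08 between 100 and 250 bases and -0.009 over genes longer than 1000 bases, a split made after the values were seen. It was -0.07 for insulin-like, -0.05 for FMRFamide-like and -0.05 for other neuropeptide genes, whose median effective lengths were 213, 326 and 285 bases, against 1122 bases over all genes. In single genes the gap could be larger, as for *nlp-56*, with a log2 FPKM ratio of -0.67 and a log2 read ratio of -0.38. The gap for *flp-34* ran the other way, with a log2 FPKM ratio of -0.20 and a log2 read ratio of -0.48. Reads of 4 members were divided among transcripts or genes and not whole (*ins-37*, *flp-33*, *flp-34* and *nlp-70*), and 28 members overlapped another coding gene. Leaving all of these out, a check added after the values were seen, gave median log2 FPKM ratios of -0.19, -0.22 and -0.16 for insulin-like, FMRFamide-like and other neuropeptide genes.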

How the data were processed

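Whole-nematode RNA of 1 AbaPep#07 and 1 Control library was sequenced as paired 100-base reads on a BGISEQ-500. The submitters' processing notes name HISAT2 2.0.4, Bowtie2 2.2.5, RSEM 1.2.12 and WBcel235. The authors deposited, per gene, RSEM expected counts, FPKM and TPM. Their deposited fold, p-value and FDR columns hold the authors' own comparison and were not used. The PossionDis test named in the methods was recomputed from the expected counts rounded down to whole reads (Python 3.11.15, scipy 1.17.1), with 0.01 in place of an FPKM of 0. Of the tail forms tried, the two-sided one was kept because its numbers of called genes matched those the study gives, so that match is no independent check. Read ratios were scaled by library totals. Tests and, at a known scale, intervals were tested on simulated counts. The quasi-likelihood test of edgeR 4.0.16 and that of DESeq2 1.42.0 need replicates and could not be fitted. Their scaling factors, edgeR exact tests, TPM, added FPKM and other read minimums were alternatives. The factors were 0.996 for AbaPep#07 and 1.004 for Control by either tool, but they differ in use. TMM factors of edgeR multiply the library totals, while DESeq2 size factors take their place.

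All 135 members matched RefSeq names (WBcel235). Members, lists and named genes were chosen with earlier results of these data known. Named genes were the 5 with most reads and the 4 highest and 4 lowest FPKM ratios of each class (20 reads or more). Members called, examples of those with intervals off 1, and a fixed list were also named. Added after their values were seen were *ins-22*, *flp-7*, *nlp-47*, *gnrr-1*, *hid-1*, *pgal-1*, *pghm-1*, *aex-5*, *cab-1*, *bli-4* and *kpc-1*. The markers named singly and genes whose units disagreed were added in the same way. Sequences were not used here.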

Additional observations from a re-analysis of the deposited data

How the results depend on the processing

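With 1 library a condition, no library could be left out. No paired analysis was possible because each condition had 1 library. Of 73 alternative values for the classes, 58 moved by less than their limit (for a median, the counting error of the class's summed reads), and 15 by more. The summed ratio of other neuropeptide genes had an interval that included 1. With TMM factors this ratio was 1.02, and its interval of 1.01 to 1.04 lay wholly above 1. Without *nlp-49*, another abundant member, it was also 1.02, with an interval of 1.004 to 1.04. The interval lay wholly above 1 as well without *nlp-14*, *nlp-15*, *nlp-20*, *nlp-38* or *pdf-1*, each left out alone. The ratio passed below 1 in the alternatives without *nlp-77*. It also did so without *nlp-40*, at 0.988 with an interval of 0.971 to 1.006 that included 1. Among the 73 alternatives no other class value changed direction. All 153 alternatives for single members named by rule stayed within their limit, the counting interval of the read ratio. A change of sign was not counted where that interval included 1, as for *ins-11*, at -0.09 in FPKM and 0.01 in reads on the log2 scale. The gene *flp-34* was not among these members, and its FPKM ratio of 0.872 lay outside its read interval of 0.616 to 0.838. The insulin-like median was -0.065 with at least 100 reads, and the number of insulin-like calls was 0 by Bonferroni and by the edgeR exact test with assumed variation of 0.2 and of 0.4. The FMRFamide-like median was -0.18 by reads, -0.17 by TPM, -0.17 by TMM and -0.18 by DESeq2 factors, and the other neuropeptide median was -0.12 by reads, -0.10 by TPM, -0.11 by TMM and -0.13 by DESeq2 factors. These scalings put the median of all genes at -0.02, 0.03, -0.004 and -0.02 in that order. A 99% interval left 11 other neuropeptide genes off 1, against 20. The summed ratio of other neuropeptide genes was 0.956 without *nlp-77* and 0.911 without *nlp-36*, *nlp-40* and *nlp-77*. The second set was chosen after seeing the data and held the genes that passed the FDR with more reads, so its ratio could only be lower. The cause of these shifts was not tested beyond what each alternative changes. Depth limited the insulin-like class most, and variation between cultures was not measured.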
